A study of Mus musculus with 4 samples.

Results

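The mouse mitochondrial genome carries 37 genes, which encode 13 mRNAs, 2 rRNAs and 22 tRNAs, and its transcripts were compared here between livers of PA and wild-type mice. Members were the genes whose mouse symbol starts with mt-, 37 of the 55487 genes counted. RNA came from the livers of 2 PA mice and 2 WT mice, and all 4 were 11-week-old females on the FVB background fed standard chow. The labels describe the PA mice as hypomorphic Pcca-/- (A138T), and give no promoter, transgene site or allele count for that model. The Pcca product is part of propionyl-CoA carboxylase, which works in the mitochondrial matrix. PolyA RNA was sequenced from 20 mg of frozen tissue, and the study calls the 2 mice of each genotype biological replicates.

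Both strands of the mitochondrial genome are transcribed as long precursors. The heavy strand is the template for most mRNAs and for both rRNAs, and the light strand is the template for mt-Nd6 and a scatter of tRNAs. The precursors are cut largely at the tRNAs that lie between the other genes, and mRNAs and rRNAs receive short poly(A) tails; in human cells the ND6 mRNA is known to be an exception with little or no tail. The mRNAs encode core subunits of respiratory complexes I, III, IV and V, which liver cells use to make ATP. Of the 37 genes, 28 are annotated on the plus strand of the reference (12 mRNAs, 2 rRNAs and 14 tRNAs, the heavy-strand transcripts) and 9 on the minus strand (mt-Nd6 and 8 tRNAs, the light-strand transcripts).

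Several of these genes overlap or are very short, which decides how reads can be counted, so the stretches that matter are shown first, from the GENCODE transcripts of build GRCm38, 5′ to 3′. The last 60 bases of mt-Nd5, which encodes a complex I subunit (chrM:13506-13565, plus strand), and the last 60 bases of mt-Nd6, the complex I subunit transcribed the other way (chrM:13552-13611, minus strand), share 14 bases, in capitals. A fragment of mt-Nd6 mRNA that reaches those bases also counts as opposite-strand signal of mt-Nd5.
mt-Nd5 last bases: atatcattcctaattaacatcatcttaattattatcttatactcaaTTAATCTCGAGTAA
mt-Nd6 last bases: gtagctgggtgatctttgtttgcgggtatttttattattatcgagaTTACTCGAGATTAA

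The gene mt-Atp8, for a small ATP synthase subunit (chrM:7766-7969, plus strand), shares its last 43 bases, in capitals, with mt-Atp6 on the same strand and has 161 bases of its own. The isoleucine tRNA gene mt-Ti (chrM:3706-3774, plus strand) shares 2 bases with mt-Nd1 and 3 bases, on the other strand, with mt-Tq, in capitals. The glutamate tRNA gene mt-Te (chrM:14071-14139, minus strand) lies between mt-Nd6 and mt-Cytb, has no capitals, and is shown because its locus was read almost entirely from the other strand.
mt-Atp8: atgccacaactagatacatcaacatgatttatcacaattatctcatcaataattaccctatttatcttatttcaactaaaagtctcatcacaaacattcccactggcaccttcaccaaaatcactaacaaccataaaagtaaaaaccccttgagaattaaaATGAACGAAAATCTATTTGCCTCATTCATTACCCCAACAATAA
mt-Ti: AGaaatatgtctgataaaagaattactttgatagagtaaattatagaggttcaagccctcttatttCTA
mt-Te: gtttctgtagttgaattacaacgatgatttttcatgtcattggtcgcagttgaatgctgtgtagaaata

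Parts of the mitochondrial genome also have near-identical annotated copies in the nuclear genome, which take reads that fit both places. On chromosome 1 the annotated pseudogenes Gm10925, Gm28661, Gm28437 and Gm10222 matched mt-Atp6, mt-Co2, mt-Co3 and mt-Nd4l at 100% over 678, 681, 783 and 294 bases, and Gm28439 matched part of mt-Nd4 at 100% over 876 bases. The copy of mt-Nd3, Gm28438, differed at 1 of 345 aligned bases, T3C with positions counted from 1 at the start of mt-Nd3. The copy of mt-Co1, Gm29216, differed at 1 of 483 aligned bases, A1066T counted from the start of mt-Co1. Both differences are between sequences of the reference build, and the bases of the FVB mice at these positions were not examined. The differing base is in capitals in the stretches below, which lie at chrM:9459-9491 (plus strand) and chr1:24613087-24613119 (minus strand) for mt-Nd3, and at chrM:6390-6423 (plus strand) and chr1:24616155-24616188 (minus strand) for mt-Co1.
mt-Nd3 stretch: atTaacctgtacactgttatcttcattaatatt
Gm28438 stretch: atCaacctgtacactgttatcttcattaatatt
mt-Co1 stretch: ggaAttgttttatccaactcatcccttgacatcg
Gm29216 stretch: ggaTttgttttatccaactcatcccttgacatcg

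The libraries held 25575016 to 30110400 sense-strand gene counts, and the sense column held 97.0% to 97.1% of the stranded counts in every library. A count of 3 equals 0.0996 to 0.117 counts per 1000000 gene counts (CPM). PA replicate 1 stood apart from the other 3 libraries in reads mapped to several places, 13.5% of its reads, against 9.19% in PA replicate 2 and 9.11% and 9.42% in the WT livers. Pcca itself was read at 34.2 and 47.3 CPM in PA livers and at 60.3 and 58.8 CPM in WT livers (log2 fold change -0.55 ± 0.22 SE, edgeR quasi-likelihood adjusted p = 0.398). The tissue label held, with 8 hepatocyte markers summing to 138383 and 167098 CPM in PA livers and 147764 and 166850 CPM in WT livers, and 2 of 3 muscle markers and 2 of 3 adipose markers at 0 in every library.

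Mitochondrially encoded RNA took a larger part of both PA libraries than of both WT libraries, and the 19 transcripts that could be tested had positive fold changes, of which 3 passed the threshold. The members held 13.6% and 8.98% of sense gene counts in PA livers, against 6.90% and 7.38% in WT livers. The means were 11.3% ± 3.29 in PA livers and 7.14% ± 0.340 in WT livers (SD, n = 2 each), a difference of 4.16 percentage points. An exact two-sided permutation test gave p = 0.333, the smallest p that 2 against 2 can give. Without PA replicate 1 the difference was 1.84 points, and without PA replicate 2 it was 6.49 points. Summed markers of other cells also differed between the pairs of libraries. The 6 red blood cell markers, of which 2 of 5 tested were called lower, where 0.548% of all genes were, summed to 11.9 and 16.8 CPM in PA livers, against 88.5 and 47.5 CPM in WT livers. The 7 Kupffer cell markers summed to 253 and 352 CPM in PA livers, against 572 and 494 CPM in WT livers, and the 5 B cell markers to 3.22 and 5.72 CPM in PA livers, against 15.1 and 12.6 CPM in WT livers. Among 11 immediate early genes, which respond within minutes to handling, the sum was 158 and 94.9 CPM in PA livers, against 91.5 and 68.3 CPM in WT livers, highest in PA replicate 1. The largest parts of that sum were Dusp1 and Zfp36. Dusp1 was at 49.9 and 17.2 CPM in PA livers and 12.7 and 13.6 CPM in WT livers. Zfp36 was at 48.3 and 42.0 CPM in PA livers and 31.7 and 22.8 CPM in WT livers. Of the 10 genes tested, 9 had a positive and 1 a negative fold change. Both PA livers lay above both WT livers in 3 of them, where 21.3% of all genes tested did so. In the Kupffer cell, B cell and immediate early lists edgeR called 0 genes, where it called 0.548% of all genes lower and 0.264% higher. Of the 7, 5 and 10 genes tested in them, 4, 3 and 3 had an unadjusted p below 0.05 in the direction of the sum. Of all 14411 genes tested, 854 had one lower in PA livers and 847 higher. The part of any of these lists in the mitochondrial values was not tested. In bulk tissue, a changed number of cells of a type and a changed amount of RNA per cell cannot be told apart.

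Of the 37 members, 19 had enough sense counts to be tested, namely the 13 mRNAs, the 2 rRNAs and 4 tRNAs. Of these 19, 3 rose in PA livers at an edgeR adjusted p below 0.05 and 0 fell, where 0.264% of the 14411 genes tested rose, 0.548% fell and 0.812% did either. The 3 were mt-Rnr1, mt-Nd6 and mt-Ti. A further 12 had an unadjusted edgeR p below 0.05 with a positive fold change, giving 15 in all, where 5.88% of all genes tested did so. The median log2 fold change over the 19 was 1.30, against 0.00 over all genes tested, and 16 of the 19 had both PA libraries above both WT libraries in CPM, against 21.3% of all genes. Over 15 members tested in RSEM counts with nuclear copies added, a setting chosen after seeing the data, the median was 1.12. DESeq2 called 12 of the 19 higher, where it called 1.29% of all genes higher, and limma-voom called 2, where it called 0.194%. Without PA replicate 1 the median was 0.73, with 16 positive and 3 negative values and 6 calls. Without PA replicate 2 the median was 1.52, with 14 calls. Each fit without a library sets 1 liver against 2 and takes the spread from the remaining pair, and over all genes the calls went up to 303 and 500 in these fits, against 117 with all 4 libraries, so a call gained there is not support for a change.

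**Figure D1:**
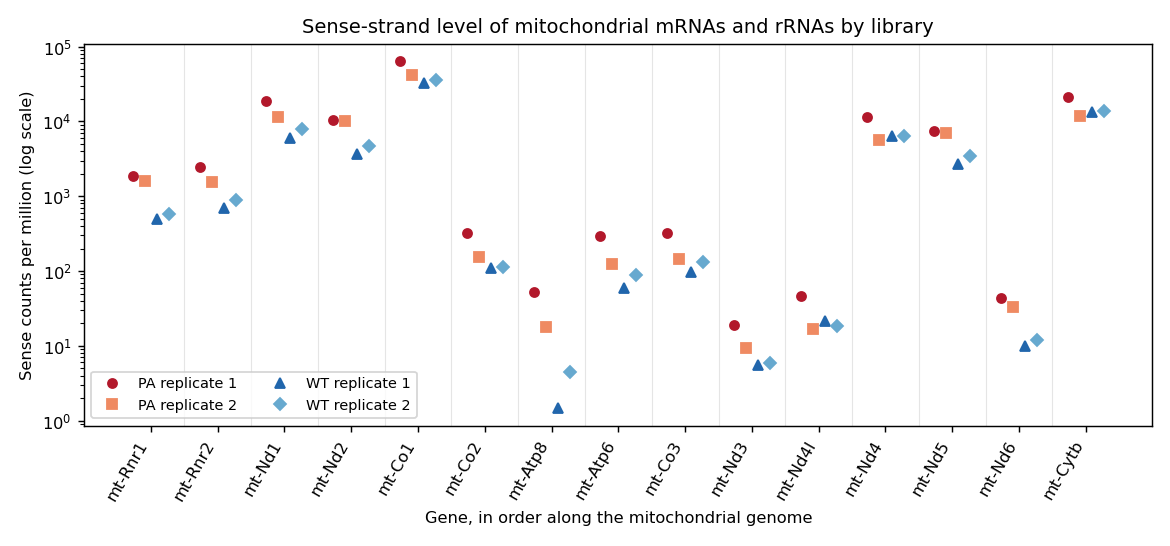
Sense CPM (log scale) of the 13 mRNAs and 2 rRNAs in each of the 4 libraries, in gene order along the mitochondrial genome; each point is 1 liver. Both PA points lie above both WT points for 10 of the 13 mRNAs and both rRNAs, while for mt-Nd4l, mt-Nd4 and mt-Cytb PA replicate 2 lies below both WT points.

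The rRNAs lie first on the heavy-strand transcript and form the RNA core of the mitochondrial ribosome. The 12S rRNA gene mt-Rnr1 (ENSMUSG00000064337, chrM:70-1024, plus strand) was read at 1850.1 and 1614 CPM in PA livers, against 501 and 583 CPM in WT livers. The groups were far apart and each pair was close, and mt-Rnr1 rose with a log2 fold change of 1.68 ± 0.26 (SE, edgeR adjusted p = 0.0474). Leaving out WT replicate 1 gave an adjusted p of 0.294, and leaving out WT replicate 2 gave 0.155, so the call was not made without either WT liver. The 16S rRNA gene mt-Rnr2 (ENSMUSG00000064339, chrM:1094-2675) was read at 2471 and 1563 CPM in PA livers, against 691 and 903 CPM in WT livers. Its groups did not overlap either, and its log2 fold change of 1.34 ± 0.33 had an adjusted p of 0.157. Relative to the mRNAs, the rRNAs made up 32.1 and 36.2 counts per 1000 heavy-strand mRNA counts in PA livers, against 18.2 and 20.5 in WT livers (exact permutation p = 0.333, the smallest possible). Since polyA RNA was sequenced, a change in an rRNA's amount and a change in the part of it that carries a tail cannot be told apart.

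Complex I, which passes electrons from NADH to ubiquinone, takes 7 of the 13 mRNAs, and 1 of these 7, mt-Nd6, rose. The complex I subunit gene mt-Nd1 was read at 19009 and 11466 CPM in PA livers, against 6095 and 7990.0 CPM in WT livers, which gave 1.11 ± 0.37 on the log2 scale (SE, edgeR adjusted p = 0.293). The subunit gene mt-Nd2 was read at 10440.3 and 10184 CPM in PA livers, against 3655 and 4691 CPM in WT livers, a log2 fold change of 1.31 ± 0.30 (0.140). For mt-Nd5 the values were 7487 and 6986 CPM in PA livers, against 2705 and 3426 CPM in WT livers, a log2 fold change of 1.24 ± 0.30 (0.150). In mt-Nd2 and mt-Nd5 the PA livers differed little from each other, and both stood well above the WT livers. Neither passed the threshold with all 4 libraries. In mt-Nd4 the PA livers fell on both sides of WT, with 11431 and 5677 CPM in PA livers, against 6417 and 6431 CPM in WT livers (0.41 ± 0.39, 0.751). Its STAR counts, on both strands, hold no reads that also fit Gm28439, and its RSEM log2 fold change was 0.66. PA livers also lay on both sides of WT livers in mt-Nd4l, whose last 7 bases lie within mt-Nd4, with 46.8 and 16.5 CPM in PA livers, against 21.7 and 18.2 CPM in WT livers (0.66 ± 0.44, 0.623). For mt-Nd3 the values were 18.8 and 9.42 CPM in PA livers and 5.54 and 5.89 CPM in WT livers (1.30 ± 0.34, 0.184). Sense counts of mt-Nd3 and mt-Nd4l leave out reads that also fit their nuclear copies. With copies added, their RSEM log2 fold changes were 1.28 and 0.50.

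The complex III gene mt-Cytb, which encodes cytochrome b, had the smallest fold change of the 13 mRNAs. It was read at 21464 and 11688 CPM in PA livers, against 13367 and 13693 CPM in WT livers (log2 fold change 0.29 ± 0.38, edgeR adjusted p = 0.824). PA replicate 1 was above both WT livers and PA replicate 2 below both. When PA replicate 1 was left out, the fold changes (log2) of mt-Cytb, mt-Nd4 and mt-Nd4l were -0.21, -0.17 and -0.27, none of them past the threshold.

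Complex IV is cytochrome c oxidase, the last step of the electron transport chain, and none of its 3 mRNAs passed the threshold. Its catalytic subunit gene mt-Co1 (ENSMUSG00000064351, chrM:5328-6872), which held the most sense counts of the 13 mRNAs, was read at 63652 and 41231 CPM in PA livers, against 32862 and 35988 CPM in WT livers. The groups did not overlap, but the gap between the PA livers was wider than that between PA replicate 2 and the WT livers (log2 fold change 0.61 ± 0.37, edgeR adjusted p = 0.590). For mt-Co2 the values were 322 and 156 CPM in PA livers and 110.2 and 114 CPM in WT livers (1.09 ± 0.35, 0.273). For mt-Co3 they were 323 and 143 CPM in PA livers and 97.6 and 131 CPM in WT livers (1.03 ± 0.39, 0.362). Sense counts of mt-Co2 and mt-Co3 leave out reads that also fit their nuclear copies. For mt-Co2 they were 8207 and 4649 in PA livers, against 774775 and 455884 RSEM counts with copies added. These CPM values are therefore not levels to set beside mt-Co1. With copies added, the RSEM log2 fold changes were 0.87 for mt-Co2 and 0.63 for mt-Co3.

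Complex V, the ATP synthase, has 2 mitochondrial subunit mRNAs, and neither passed the threshold. The proton channel subunit gene mt-Atp6 was read at 296 and 124 CPM in PA livers, against 58.4 and 88.8 CPM in WT livers (log2 fold change 1.51 ± 0.43, edgeR adjusted p = 0.218). These counts too leave out reads that also fit nuclear copies, and with copies added the RSEM log2 fold change was 0.93. The gene mt-Atp8, printed above, had 1330 and 537 sense counts in PA livers, against 45 and 114 in WT livers. That is 52.2 and 18.1 CPM in PA livers and 1.47 and 4.47 CPM in WT livers, and the log2 fold change was 3.58 ± 0.65 (edgeR adjusted p = 0.0725). Leaving out each library in turn gave log2 fold changes between 2.63 and 4.58. A read counts for mt-Atp8 alone when it stays within its 161 own bases and maps to a single place. The mean fragment implied by the RSEM lengths was 157 and 162 bases in PA livers and 158 and 159 bases in WT livers. On chromosome 1 the copies of its neighbours mt-Co2 (24614885-24615565) and mt-Atp6 (24613974-24614651) lie on either side of a short stretch. Copies were sought among annotated transcripts only, so whether that stretch matches mt-Atp8 and takes its reads was not tested. RSEM also shares out reads over the overlap and reads that map to several places, and with it mt-Atp8 had 85568 and 67857 expected counts in PA livers, against 19452 and 23333 in WT livers, a log2 fold change of 1.90. The RSEM change was smaller and in the same direction, and the parts of overlap reads and of multi-mapping reads in that difference were not told apart.

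**Figure D2:**
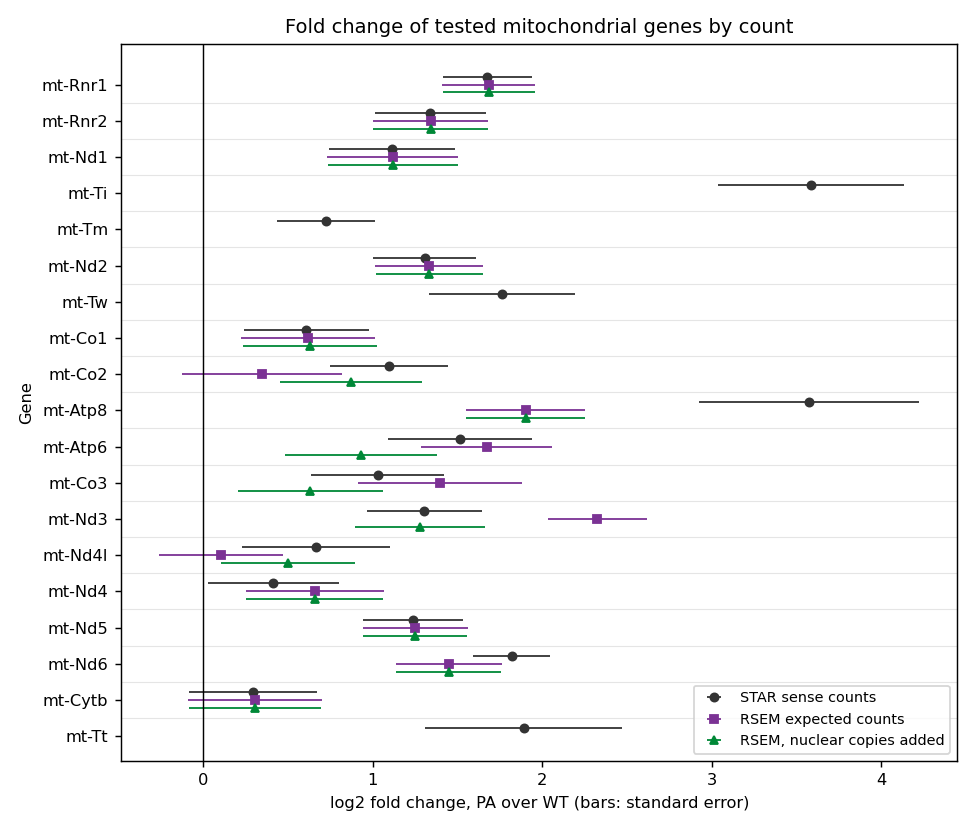
Log2 fold change, PA over WT, of the 19 tested members with standard errors (bars), from STAR sense counts, RSEM expected counts, and RSEM counts with the annotated nuclear copies added; the 4 tRNAs have no RSEM value. All values are positive, from 0.29 for mt-Cytb to 3.59 for mt-Ti in sense counts, and the 3 counts lie apart for mt-Atp8 and for genes with near-identical nuclear copies, among them mt-Nd3, mt-Co3, mt-Co2, mt-Atp6 and mt-Nd4l.

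Among the 22 tRNAs, 18 had too few sense counts to be tested, 12 of them with 0 in every library, and all 22 were listed at 0 TPM by RSEM. The tRNA genes are 59 to 75 bases long here. Mature tRNAs carry no long poly(A) tail, so these counts measure reads that lie over a tRNA gene, not tRNA supply. A gene with 0 counts could still have held up to 0.0996 to 0.117 CPM, the level of 3 counts, and such floors cover counting error only. The tested tRNA gene mt-Ti had 152 and 321 sense counts in PA livers, against 10 and 28 in WT livers. These are 5.96 and 10.8 CPM in PA livers and 0.326 and 1.10 CPM in WT livers, and mt-Ti rose by 3.59 ± 0.55 on the log2 scale (SE, edgeR adjusted p = 0.0454; limma-voom adjusted p = 0.0576). PA replicate 2 held the higher value, the reverse of most mRNAs. The methionine tRNA gene mt-Tm was read at 9.85 and 6.12 CPM in PA livers and 4.98 and 4.67 CPM in WT livers (0.72 ± 0.29, 0.390). The tryptophan tRNA gene mt-Tw was read at 7.06 and 4.91 CPM in PA livers and 1.04 and 2.51 CPM in WT livers (1.76 ± 0.43, 0.160). The threonine tRNA gene mt-Tt was read at 9.14 and 2.56 CPM in PA livers and 1.30 and 1.84 CPM in WT livers (1.89 ± 0.58, 0.259). All 4 lay higher in both PA livers than in both WT livers, where 21.3% of all genes tested did. The threshold was passed by 1 of the 4, where 0.264% of all genes tested rose. A gene can pass the count filter through 1 genotype alone, and for mt-Ti most counts came from the PA livers. Counted without regard to strand, each of the 4 had 0 counts in every library. Their sense reads thus also lay over a gene on the other strand, which for mt-Ti is mt-Tq. The same reads can appear again among the opposite-strand counts of that gene.

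The light-strand mRNA mt-Nd6 (ENSMUSG00000064368, chrM:13552-14070, minus strand) rose in PA livers, and it had the lowest adjusted p of the members. It held 1113 and 994 sense counts in PA livers, against 307 and 302 in WT livers. In CPM it was at 43.7 and 33.4 in PA livers and at 10.001 and 11.9 in WT livers, and the log2 fold change was 1.82 ± 0.23 (edgeR adjusted p = 0.0222). Leaving out each library in turn gave 1.62 to 2.00 (edgeR adjusted p of 0.00385 to 0.0444, with 1 liver in an arm). Both PA livers stood clear of both WT livers, and the PA pair lay closer together than for mt-Cytb or mt-Nd4.

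Almost all reads over the mt-Nd6 gene nevertheless ran the other way, in the heavy-strand direction. Opposite-strand counts there were 63477 and 64264 in PA livers, against 21642 and 25715 in WT livers. They made up 98.3% and 98.5% of the stranded counts at mt-Nd6 in PA livers, and 98.6% and 98.8% in WT livers. RSEM gave mt-Nd6 50120.0 and 49450.0 expected counts in PA livers, against 17100.0 and 20577 in WT livers, many times its sense counts, so RSEM and TPM values of mt-Nd6 hold mostly heavy-direction reads. The fold change of 1.45 from RSEM (edgeR adjusted p = 0.127) and of 1.46 from counts without regard to strand (0.105) are therefore not measures of the light-strand mRNA. The opposite-strand counts themselves had a log2 fold change of 1.44 ± 0.30 (0.0592).

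Relative to the heavy-strand mRNAs, the light-strand mRNA was higher in both PA livers. Per 10000 sense counts on the 12 heavy-strand mRNAs there were 3.25 and 3.81 mt-Nd6 sense counts in PA livers, against 1.53 and 1.63 in WT livers. On the log2 scale the ratio was -11.59 and -11.36 in PA livers and -12.67 and -12.58 in WT livers, a difference of 1.15 with an exact two-sided permutation p of 0.333, the smallest possible. The largest part of the heavy-strand sum was mt-Co1, whose log2 fold change was 0.61. Against its neighbour mt-Nd5 alone, the gap of mt-Nd6 was smaller, with 5.83 and 4.78 mt-Nd6 counts per 1000 mt-Nd5 counts in PA livers, against 3.70 and 3.46 in WT livers. At mt-Nd6 itself the log2 ratio of heavy-direction to light-direction counts changed by -0.35 ± 0.24 (edgeR quasi-likelihood unadjusted p = 0.176, adjusted p = 0.727). In polyA RNA, a change in the amount of mt-Nd6 mRNA and a change in its tailed part cannot be told apart. The light-direction part of all stranded mitochondrial counts was 0.156% and 0.161% in PA livers, against 0.113% and 0.110% in WT livers. Summed over the 163 abundant nuclear genes described below, the opposite-strand part was 0.0599% and 0.0545% in PA livers and 0.0509% and 0.0497% in WT livers. Light-direction reads were thus a minor part of these counts in every library. In polyA RNA that part does not give the share of light-strand RNA in the tissue.

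Reads opposite to the heavy-strand genes were few, and for most of those genes they did not exceed what nuclear genes showed. Over 163 abundant nuclear genes with no annotated gene on the other strand, the median opposite-strand part was 0.04998% and 0.0493% in PA livers and 0.0424% and 0.0454% in WT livers, with a highest gene of 0.316% and 0.317% in PA livers and 0.391% and 0.267% in WT livers. Over mt-Co1 the part was 0.0416% and 0.0386% in PA livers, against 0.0284% and 0.0361% in WT livers, below the nuclear median. Over mt-Nd1 and mt-Nd2 the part was above that median in every library, with 41 to 81 and 35 to 73 nuclear genes above it. Over mt-Nd5 it was 0.846% and 0.662% in PA livers, against 0.792% and 0.609% in WT livers, and 0 of the 163 nuclear genes lay above it in any library. Reads of mt-Nd6 that cross the printed overlap are counted here too, and their number was not tested. Over mt-Cytb it was 0.231% and 0.181% in PA livers, against 0.173% and 0.163% in WT livers, with 3 and 4 nuclear genes above it in PA livers and 7 and 5 in WT livers. The opposite-strand part thus stood above all 163 nuclear genes at mt-Nd5, next to mt-Nd6, and below the nuclear median at mt-Co1.

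**Figure D3:**
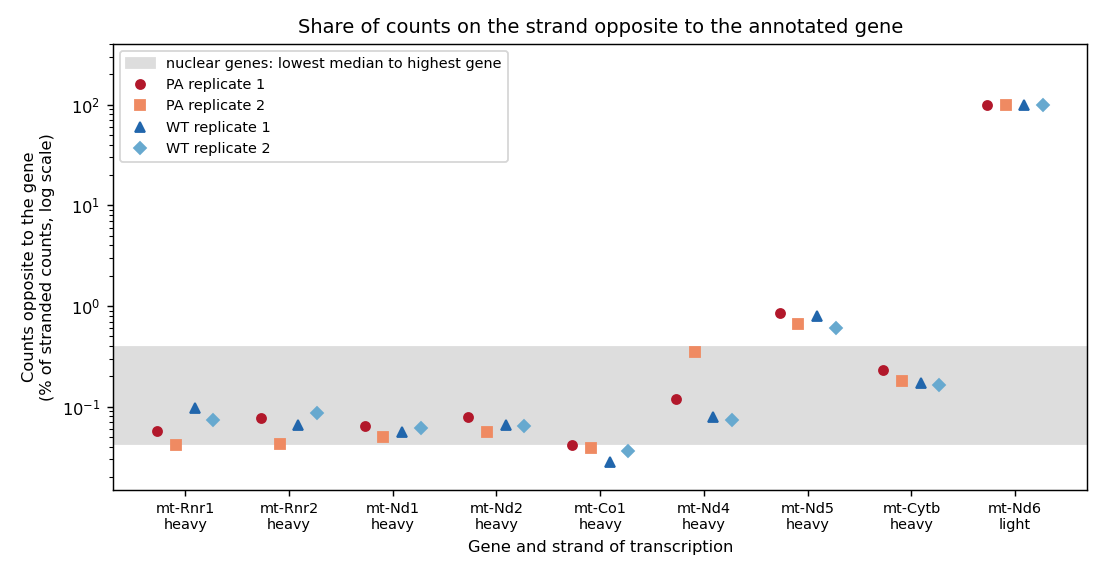
Counts on the strand opposite to the gene, as percent of its stranded counts (log scale), for the 8 abundant heavy-strand genes and the light-strand mt-Nd6 in each library; the grey band runs from the lowest median to the highest gene over 163 nuclear genes. At mt-Nd6 98.3% to 98.8% of counts were opposite, mt-Nd5 lay above the band in all 4 libraries, and mt-Nd4 was high in PA replicate 2 alone.

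In the fit of opposite-strand counts 16 members were tested and 2 rose, mt-Nd4 and the cysteine tRNA gene mt-Tc, where 0.342% of the 2924 genes tested rose. Over mt-Nd4 the opposite counts were 347 and 589 in PA livers, against 156 and 122 in WT livers (log2 fold change 1.76 ± 0.29, edgeR adjusted p = 0.0195). As a part of all stranded mt-Nd4 counts, which lack multi-mapping reads on both strands, this was 0.119% and 0.348% in PA livers, against 0.0791% and 0.0744% in WT livers, and 16 and 0 of the nuclear genes lay above it in PA livers, 23 and 23 in WT livers. The high value belonged to PA replicate 2, the library in which sense mt-Nd4 was lowest. For mt-Tc, a light-strand gene, opposite reads run in the heavy-strand direction, and they numbered 82 and 72 in PA livers, against 4 and 11 in WT livers (3.35 ± 0.49, 0.0119). Neither call was made with the replicate number as a block, and 0 members were called without WT replicate 1. A direct test of the antisense to sense ratio called 0 of 9 members (edgeR quasi-likelihood), where 0.715% of the 1678 genes tested were called, and 1 member, mt-Nd4, had an unadjusted p below 0.05 (log2 ratio change 1.42 ± 0.40, unadjusted p = 0.00511, adjusted p = 0.209).

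The light-strand tRNA genes were, like mt-Nd6, read mostly from the other strand, and in every library at least 99.35% of the stranded counts of each ran in the heavy-strand direction. Over mt-Tp, the proline tRNA gene beside mt-Tt, there were 7019 and 5071 opposite counts in PA livers, against 3542 and 2829 in WT livers, and 2 or 3 sense counts in each library. Over mt-Te, printed above, there were 2177 and 1342 opposite counts in PA livers, against 579 and 689 in WT livers (log2 fold change 1.51 ± 0.35, edgeR adjusted p = 0.0795). Over mt-Tq, the glutamine tRNA gene, there were 1726 and 2174 in PA livers, against 841 and 919 in WT livers (1.15 ± 0.27, 0.0834). Over mt-Ts1, a serine tRNA gene, there were 2162 and 1151 in PA livers, against 632 and 839 in WT livers (1.21 ± 0.39, 0.225). These counts are of RNA in the heavy-strand direction over the tRNA position, and they say nothing of the tRNAs themselves. For mt-Ty, the tyrosine tRNA gene, the groups overlapped, with 1119 and 400 in PA livers and 383 and 419 in WT livers.

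The make-up of the sense counts on mRNAs, which hold no multi-mapping reads, also differed between the pairs. Of the sense counts on the 13 mRNAs, mt-Co1 held 47.3% and 47.0% in PA livers, against 50.2% and 49.6% in WT livers. The part on mt-Cytb was 15.9% and 13.3% in PA livers, against 20.4% and 18.9% in WT livers, and that on mt-Nd4 was 8.49% and 6.47% in PA livers, against 9.81% and 8.86% in WT livers. The parts on 3 other complex I mRNAs were higher in both PA livers. They were 14.1% and 13.1% for mt-Nd1 in PA livers, against 9.32% and 11.0% in WT livers. They were 7.76% and 11.6% for mt-Nd2 in PA livers, against 5.59% and 6.46% in WT livers. They were 5.56% and 7.96% for mt-Nd5 in PA livers, against 4.14% and 4.72% in WT livers. In each of these 6 mRNAs the PA and WT livers did not overlap, and as parts of a whole the 6 values are not independent. In CPM, 21.3% of all genes tested had both PA livers above both WT livers, and 21.9% had both below. These parts change when multi-mapping reads are shared out, since mt-Co2, mt-Atp6 and mt-Co3 with their nuclear copies then hold more RSEM counts than mt-Cytb in every library, apart from mt-Atp6 in WT replicate 1. Of RSEM counts on the 13 mRNAs with copies added, mt-Cytb held 7.44% and 6.92% in PA livers, against 10.5% and 9.42% in WT livers. On that count mt-Nd5 held 2.51% and 3.98% in PA livers, against 2.03% and 2.27% in WT livers. The groups again did not overlap in any of the 6, though for mt-Co1 they lay close, at 33.2% and 36.1% in PA livers, against 38.3% and 36.4% in WT livers.

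**Figure D4:**
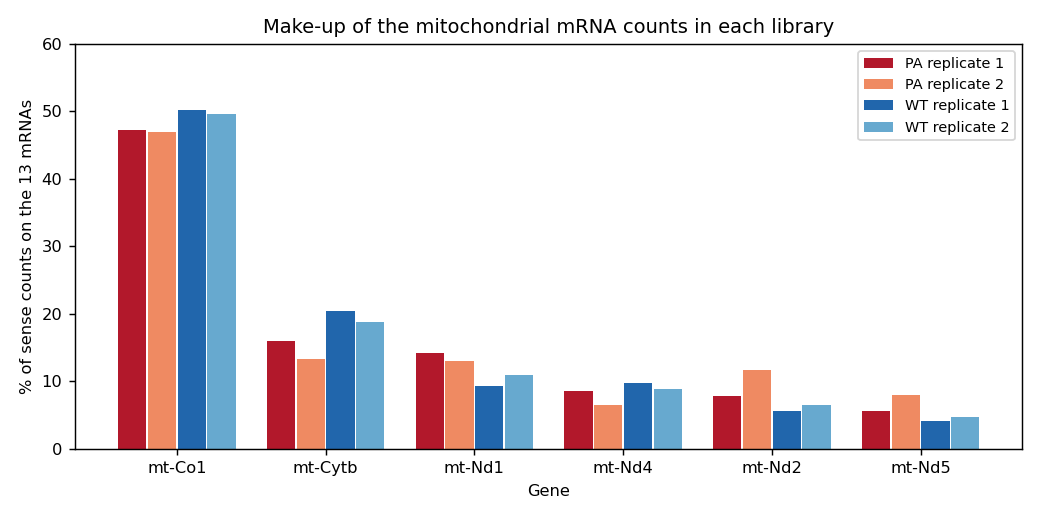
Percent of all sense counts on the 13 mitochondrial mRNAs that fell on each of the 6 most counted ones, without multi-mapping reads, with 1 bar per library and both PA libraries left of both WT libraries. The parts on mt-Co1, mt-Cytb and mt-Nd4 are lower in both PA bars, and those on mt-Nd1, mt-Nd2 and mt-Nd5 are higher.

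The ratio between the PA livers also differed from gene to gene. The CPM of PA replicate 1 over that of PA replicate 2 was 1.03 for mt-Nd2, 1.07 for mt-Nd5, 1.15 for mt-Rnr1 and 1.31 for mt-Nd6. It was 1.54 for mt-Co1, 1.66 for mt-Nd1, 1.84 for mt-Cytb and 2.01 for mt-Nd4. It was 2.89 for mt-Atp8 and 3.58 for mt-Tt, and 0.552 for mt-Ti. So PA replicate 1 was not higher than PA replicate 2 by a common factor. Between the WT livers the same ratio, replicate 1 over replicate 2, ran from 0.763 for mt-Nd1 to 0.998 for mt-Nd4 over the 8 abundant genes mt-Rnr1, mt-Rnr2, mt-Nd1, mt-Nd2, mt-Co1, mt-Nd4, mt-Nd5 and mt-Cytb.

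The sense counts of mt-Co2, mt-Atp6, mt-Co3, mt-Nd3 and mt-Nd4l, all with near-identical nuclear copies, hold no multi-mapping reads. RSEM shares such reads out. For these 5 genes it gave most of the expected counts to the copies, while for mt-Nd4 it gave Gm28439 5.54 and 0 counts in PA livers and 0 and 0 in WT livers. Of the expected counts on mt-Co2 and its copies together, 97.7% and 98.4% in PA livers and 96.8% and 97.2% in WT livers went to the copies. For mt-Atp6 these were 95.5% and 95.4% in PA livers, against 96.9% and 97.5% in WT livers. For mt-Co3 they were 96.2% and 96.5% in PA livers, against 98.4% and 97.3% in WT livers. For mt-Co1, whose chromosome 1 copy covers part of the gene, they were 10.03% and 8.57% in PA livers, against 9.24% and 8.25% in WT livers. Expected counts on mitochondrial genes and copies are therefore best read together, since the split between identical sequences carries no information.

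With the copies added, mitochondrial sequence took 25.4% and 16.0% of RSEM expected counts in PA livers, against 12.7% and 13.8% in WT livers. Added up in this way, mt-Co2 had 774775 and 455884 counts in PA livers, against 382143 and 338355 in WT livers (log2 fold change 0.87). The log2 fold change was 0.93 for mt-Atp6, 0.63 for mt-Co3, 1.28 for mt-Nd3 and 0.50 for mt-Nd4l. None of the 15 members with RSEM counts was called by edgeR in this setting, which was chosen after seeing the data, and 8 had an unadjusted p below 0.05 with a positive value. With RSEM counts alone 1 of 15 was called, mt-Nd3 (log2 fold change 2.33, adjusted p = 0.0244), where 0.225% of genes were called higher. Its value with copies added was smaller (1.28, 0.250), so the call depended on how reads were divided between mt-Nd3 and Gm28438.

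**Figure D5:**
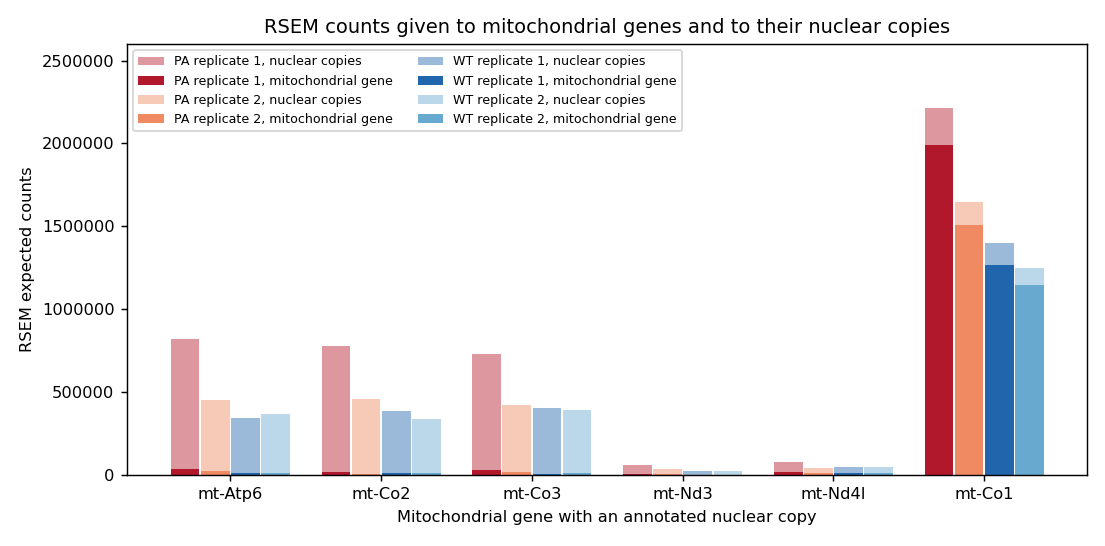
RSEM expected counts of 6 mitochondrial genes (full colour) and of their annotated nuclear copies stacked on top (pale colour), with 1 bar per library and both PA libraries left of both WT libraries. For mt-Atp6, mt-Co2 and mt-Co3 nearly all of each bar is pale, and for mt-Co1 most is not.

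Among the 17 annotated copies, 16 were tested in sense counts and 2 rose, where 0.264% of all genes tested did. They were Gm13339 on chromosome 2, which matched mt-Nd2 at 96.7% over 510 bases, and Gm4076 on chromosome 13, which matched mt-Nd5 at 95.2% over 954 bases. Gm13339 was read at 35.4 and 29.0 CPM in PA livers, against 5.70 and 10.1 CPM in WT livers (log2 fold change 2.03 ± 0.30, edgeR adjusted p = 0.0403). Gm4076 was read at 30.8 and 26.8 CPM in PA livers, against 8.80 and 11.9 CPM in WT livers (1.48, 0.0470). Both PA livers were above both WT livers in 14 of the 16, where 21.3% of all genes tested were. The median log2 fold change over the 16 was 1.20, against 1.30 over the 19 mitochondrial members tested. Whether the reads on the copies came from those loci or from the mitochondrial genome was not tested.

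Levels of different mRNAs can be set side by side on the TPM scale, which divides by length, with the copies added. Summed with copies, mt-Co1 ranked highest in all 4 libraries, at 81223 and 62314 TPM in PA livers, against 54969 and 54689 in WT livers. Part of that sum is Gm29216, which has 492 bases against 1545 for mt-Co1, so its reads are divided by a shorter length. Without copies mt-Co1 was at 55577 and 44757 TPM in PA livers, against 38664 and 39831 TPM in WT livers. That was below mt-Atp8 in both PA livers, so the top rank there depended on the copies. With copies added, the lowest were mt-Nd5, at 3887 and 4500.3 TPM in PA livers, against 1882 and 2252 TPM in WT livers, and mt-Nd6, whose value holds heavy-direction reads. The order between these ends differed among libraries. With 60688 and 53297 TPM in PA livers, against 15252 and 20923 TPM in WT livers, mt-Atp8 ranked 3 and 2 in PA livers and 6 and 5 in WT livers; its TPM rests on a very short effective length. Ranks of mt-Cytb were 8 and 7 in PA livers and 5 and 6 in WT livers. The members summed to 20.7% and 17.1% of all TPM in PA livers, against 10.6% and 11.7% in WT livers, and with copies to 41.9% and 30.3% in PA livers, against 22.1% and 24.2% in WT livers.

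Nuclear genes that serve mitochondrial DNA and RNA were not called in either direction. Of 113 such genes in 8 lists, 0 passed edgeR's threshold, 0 passed with DESeq2 and 0 with limma-voom, and 9 had an unadjusted p below 0.05, all higher, where 5.88% of all genes tested were. Their median log2 fold change was 0.09, with 68 positive and 45 negative. The 9 genes of transcription had a median of -0.04; among them Tfam, the factor that packages mitochondrial DNA and starts transcription, was at 62.5 and 48.8 CPM in PA livers and 56.3 and 58.3 CPM in WT livers (-0.04 ± 0.21). Polrmt, the mitochondrial RNA polymerase, was at 11.6 and 7.63 CPM in PA livers and 10.2 and 7.46 CPM in WT livers (0.12 ± 0.28). The medians were -0.11 over 15 genes of replication and nucleotide supply, 0.19 over 15 of RNA processing and polyadenylation, 0.08 over 8 of RNA stability, 0.10 over 20 of tRNA and rRNA modification, 0.15 over 22 aminoacyl-tRNA synthetase genes, 0.34 over 14 translation factors and 0.05 over 10 regulators of biogenesis. All 8 medians were below the 1.30 of the mitochondrial members, and the difference between the medians was not tested.

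The 3 lowest unadjusted p values in these lists belonged to C1qbp, Mars2 and Ppargc1a. C1qbp, a matrix protein needed for mitochondrial translation, was at 62.9 and 74.8 CPM in PA livers, against 39.6 and 43.0 CPM in WT livers (log2 fold change 0.74 ± 0.20, edgeR adjusted p = 0.196). Mars2, the mitochondrial methionyl-tRNA synthetase gene, was at 4.83 and 5.38 CPM in PA livers, against 2.80 and 2.75 CPM in WT livers (0.88 ± 0.25, 0.221). Both PA livers lay above both WT livers in these 2 genes, and neither passed the test. The elongation factor gene Gfm1 was at 76.5 and 112 CPM in PA livers, against 57.9 and 56.0 CPM in WT livers (0.73 ± 0.24, 0.293). Ppargc1a, a coactivator that promotes mitochondrial biogenesis, was at 22.1 and 14.6 CPM in PA livers, against 6.65 and 11.1 CPM in WT livers (1.05 ± 0.32, 0.251). Lrpprc, whose protein binds and stabilises mitochondrial mRNAs, was at 102 and 137 CPM in PA livers, against 80.5 and 93.7 CPM in WT livers (0.45 ± 0.23, 0.520). Groups did not overlap in these 5 genes, and none was called. They were named for a low unadjusted p in their lists, so the lack of overlap is not a separate result. Slirp, of the same list as Lrpprc, overlapped, at 42.6 and 27.2 CPM in PA livers and 39.7 and 36.5 CPM in WT livers (log2 fold change -0.13). Over the 8 lists both PA livers lay above both WT livers in 28 of 113 genes, where 21.3% of all genes tested did so.

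Nuclear subunits of the same respiratory complexes also had small positive values. Of 74 tested genes for subunits of complexes I, III, IV and V, edgeR called 0, where it called 0.264% of all genes higher and 0.548% lower. An unadjusted p below 0.05 was found for 9, all higher, where 5.88% of all genes tested were. A positive fold change was found for 64, where 50.6% of all genes tested had one. Their median log2 fold change was 0.22. Atp5d, an ATP synthase subunit gene, was at 117 and 124 CPM in PA livers, against 74.5 and 74.1 CPM in WT livers (0.70 ± 0.20, edgeR adjusted p = 0.220). The 4 genes of complex II, which has no mitochondrially encoded subunit, had a median of 0.31 with 0 called and 0 at an unadjusted p below 0.05.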

How the data were processed

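RNA-seq of polyA RNA was analysed from 2 PA and 2 WT mouse livers, with 2 deposited tables per library. Per the submitters' processing notes, reads were processed with STAR 2.7.6a and RSEM 1.3.3 on GRCm38; the release of the annotation and the strand settings are not given in the sources used here. The authors deposited STAR read counts per gene in 3 columns (without regard to strand, and for each strand), and RSEM expected counts, TPM and FPKM. FPKM values deposited by the authors were not used. Reads with several mapping places or several genes are not in the STAR counts; the lines for these and for unassigned reads held 28.1% to 34.3% of each table and stayed out of library sizes. Gene names came from the GENCODE annotation of GRCm38, which matched 55227 of 55487 IDs.

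The sense column was that with over 80% of the stranded counts in every library. Genes passing filterByExpr were tested with edgeR 4.0.16 (quasi-likelihood, TMM, prior count 0.125, Benjamini-Hochberg adjustment over all genes tested, threshold 0.05; R 4.3.3), after the same steps were tested on simulated data. Standard errors are the fold change over the square root of the F statistic. Opposite-strand counts were fitted with the library sizes and TMM factors of the sense counts, and the antisense to sense ratio as an interaction with the mouse as block. RSEM expected counts were rounded before fitting. DESeq2 1.42.0, limma 3.58.1 (voom), other scalings, no filter and leaving out each library were alternatives. Nuclear copies were found with BLAST 2.17.0 (at least 90% identity over 100 bases) among annotated nuclear transcripts. With 2 libraries per group, precision is set by the spread between mice, and an exact permutation p cannot go below 0.333. Members, lists and tests were chosen with earlier results of these data known. All 37 members are accounted for; of each nuclear list, called genes and otherwise up to 4 with the smallest p could be named. Tfam and Polrmt fall outside that rule and were chosen after their values were seen.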

Additional observations from a re-analysis of the deposited data

How the results depend on the processing

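The 3 calls among mitochondrial members became 1 with RSEM expected counts, 14 when low counts were not filtered, 12 with DESeq2, 0 with RSEM counts plus nuclear copies (chosen after seeing the data), and 3 to 14 when each library was left out in turn. Calls over all genes, 117 in all, became 902 with no filter, 442 with DESeq2 and 155 to 500 when each library was left out, where 1 liver stands alone in an arm, so calls gained there are not support. The mt-Nd6 log2 fold change of 1.82 was 1.46 in counts without regard to strand (edgeR adjusted p = 0.105) and 1.45 with RSEM (0.127), both mostly heavy-direction reads, and 1.62 to 2.00 with a library left out. The call of mt-Rnr1 was lost with RSEM (1.69, adjusted p = 0.0562) and without either WT library. The 2 opposite-strand calls became 7 with DESeq2, 8 with no filter and 0 to 15 with a library left out. The 0 antisense to sense ratio calls became 1 with no filter and 0 to 1 with a library left out, and the 0 calls among nuclear genes of mitochondrial gene expression likewise became 1 with no filter (Ppargc1a) and 0 to 1 with a library left out. The median TPM log2 difference over mRNAs and rRNAs, 1.02, was 0.64 with nuclear copies added and 0.66 to 1.16 with a library left out. The heavy-strand mRNA median of 1.10 ranged from 0.60 (PA replicate 1 left out) to 1.38 (PA replicate 2 left out), and stayed between 0.90 and 1.18 in the settings that keep all libraries. Direction reversed when PA replicate 1 was left out for mt-Nd4l (leave-one-out range -0.27 to 1.23), mt-Nd4 (-0.17 to 0.83), mt-Cytb (-0.21 to 0.66) and Mterf2 (-0.27 to 0.77), and when PA replicate 2 was left out for Slirp (-0.48 to 0.16), with no reversed value called. Scaling by DESeq2 size factors, library sizes or nuclear genes alone left 3 member calls each. The causes of these differences were not tested.

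With the replicate number as a block, 318 genes and 4 members were called (mt-Nd6 at 1.81, adjusted p = 0.00269), 0 members were called in opposite-strand counts, the share difference was 4.16 points and the light- to heavy-strand log2 ratio difference 1.15 (exact p = 0.5 for each, the smallest possible). Deviations of same-numbered livers had a correlation of -0.09, so the numbers were not taken to pair the mice. With 2 livers per genotype, a p above the threshold does not show that a transcript did not differ, and counts below 3 cannot be told from 0.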
